A study of Mus musculus with 32 samples.

Results

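Runx1t1, its ETO relatives Cbfa2t2 and Cbfa2t3, the RUNX factors Runx1, Runx2 and Runx3, and their shared partner Cbfb were followed in sorted mouse blood stem and progenitor cells. These 7 genes were chosen by name, as the members of 2 protein families that meet in leukaemia, out of 41388 genes listed. Each was read in all 24 RNA-seq libraries, and each of the 2 mouse cohorts was treated on its own.

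RUNX proteins bind DNA through their Runt domain, and Cbfb binds no DNA itself but strengthens that contact. In the blood system Runx1 is needed for stem cells to arise from the embryonic vessel wall and for platelet and lymphoid output in the adult. ETO proteins are corepressors that do not recognise DNA on their own and bring NCoR, SIN3 and histone deacetylases to DNA-bound partners. The families are joined in the RUNX1-RUNX1T1 fusion (AML1-ETO) of acute myeloid leukaemia, and CBFB is itself fused to a myosin gene in another form of the disease.

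The cells came from bone marrow of C57BL/6 mice. The gate for haematopoietic stem cells (HSC) took CD150+ CD48- cells from the Lin- cKit+ Sca1+ marrow, and multipotent progenitors (MPP) were the CD150- CD48- cells of the same fraction. In the Vav cohort, mice of 8 weeks carried Vav-CRE, which is active across blood cells, and the groups were controls labelled wild-type and Jarid2-KO, each as HSC and as MPP with 3 libraries. In the Mx1 cohort, mice of 10 weeks carried Mx1-CRE and were taken 2 months after pIpC, the agent that induces that recombinase. Each of its 6 groups held 2 libraries: HSC or MPP of controls labelled wild-type, of Jak2V617F, or of mice with both Jak2V617F and Jarid2-KO, called double mutant here. Jak2V617F is the activating kinase mutation of myeloproliferative disease, and Jarid2 helps recruit Polycomb repressive complex 2, the enzyme that writes H3K27me3. The design text of the series names Jarid2-KO alone where the sample labels of the Mx1 cohort give Jak2V617F, and the sample labels were followed. Per the labels, mice of both sexes were pooled, so a library is not 1 animal, and p-values measure the spread between pools.

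The RUNX genes share a short stretch of sequence at a transcription start, shown because it holds their own family's binding motif as a close pair. The 300-base promoter windows of RefSeq (build GRCm38.p6, 250 bases before to 50 after each start) gave 9 windows for 6 members. The motif TGTGGT, searched on both strands, is capitalised below as it reads on the gene's strand, ACCACA.
Runx1: cctcataaacaACCACAgaACCACAagttg
Runx2: cctcacaaacaACCACAgaACCACAagtgc
Runx3: ctggtccctcaACCACAgaACCACAaggcc
These 30-base windows lie at chr16:92826028-92826057 (minus strand), chr17:44814586-44814615 (minus strand) and chr4:135120500-135120529 (plus strand). The pair begins 28 bases after the start of Runx1, 23 bases after that of Runx2 and 134 bases before that of Runx3. The windows of Runx1 and Runx2 are identical at 27 of 30 bases, those of Runx2 and Runx3 at 21 and those of Runx1 and Runx3 at 19. A pair of this spacing, on either strand, was found in 7 of 32851 mouse promoter windows (0.0213%), among them these 3 and that of Gm16225, which overlaps the Runx3 window from the opposite strand. A single TGTGGT on either strand was found in 16.8% of windows. The other 6 member windows, which belong to Cbfa2t2, Cbfa2t3, Cbfb and the second starts of Runx1 and Runx3, held no such motif. A match is a description of the letters and no evidence of binding. The windows with the pair had a GC content of 45.0% at Runx1, 45.3% at Runx2 and 63.7% at Runx3, against 69.0% at the second start of Runx1, 77.3% at that of Runx3 and a median of 52.7% over all windows. Counts per gene add up all starts, so the levels below do not tell the upstream and downstream promoters of Runx1 and Runx3 apart.

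Library totals were 10473535 to 27232379 counts in the Vav cohort and 7852483 to 20724168 in the Mx1 cohort. The marker that divides the gates was present in the Vav cohort, where Slamf1, which encodes CD150, was at 57.4 CPM or more in every HSC library and at 14.1 CPM or less in every MPP library (CPM, the count scaled to the library total). Transcripts of the sort marker were scarce in Mx1 controls and Jak2V617F: Slamf1 was at 0.196 to 5.21 CPM in control HSC and 5.04 to 12.7 CPM in Jak2V617F HSC, against 30.8 to 124 CPM in double mutant HSC. A sum of 7 HSC marker genes was 169 to 171 CPM in Mx1 control HSC and 196 to 223 CPM in Mx1 control MPP. In Jak2V617F it was 102 to 194 CPM in HSC and 196 to 230 CPM in MPP. In Vav control HSC, whose tables were made separately, it was 2011 to 2517 CPM. These sums do not bear out the name HSC in Mx1 controls and Jak2V617F, and the names used here are those of the labels. Of the Mx1 libraries, 6 held 6.67% to 10.2% of their counts in 20 heart muscle genes, against 0.584% to 1.34% in the other 6. The high set was control MPP replicate 2, Jak2V617F HSC replicate 2, both Jak2V617F MPP libraries and replicate 1 of both double mutant groups. Jarid2 itself was at 77.6 to 126 CPM in Vav controls and 80.2 to 144 CPM in Vav Jarid2-KO. Counts summed over a gene do not show which exons remain, so they do not check the deletion.

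Runx1t1 (ENSMUSG00000006586, mm10 chr4:13743436-13893649, plus strand) was the one member whose level passed the test in the Vav cohort. In control HSC it stood at 135, 130 and 84.0 CPM, and in control MPP at 20.5, 18.4 and 23.9 CPM. In Jarid2-KO HSC it stood at 133, 103 and 144 CPM, and in Jarid2-KO MPP at 69.1, 71.5 and 89.3 CPM. Control MPP were the low group, with all 3 libraries below every library of the other groups, an order that was not counted over all genes. Jarid2-KO MPP lay between: all 3 libraries were above control MPP and below all 3 Jarid2-KO HSC libraries, but the highest of them overlapped the range of control HSC.

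In MPP, Runx1t1 was 3.66-fold higher in Jarid2-KO than in controls. The log2 fold change was 1.87 (SE 0.24, 95% interval 1.32 to 2.43, adjusted p = 0.00214, edgeR quasi-likelihood test), and the mean rose from 20.9 ± 2.77 to 76.6 ± 11.0 CPM (SD, n = 3 each). It was 1 of 7 members called in this comparison, where 0.948% of 15818 genes were called, and it ranked 11 by p. The count over all genes, 150, was 34 without control MPP replicate 3, 39 without replicate 1, 55 without replicate 2 and 1512 without Jarid2-KO MPP replicate 3, and Runx1t1 was called in each of these fits. In HSC the same contrast gave 0.04 (SE 0.23, adjusted p = 0.939), with an interval of -0.49 to 0.58. None of the 7 members was called there by edgeR, DESeq2 or limma-voom, 1 (Cbfa2t3) had an unadjusted p under 0.05, as had 17.0% of all genes, and 0.569% of genes were called. The difference of the effects, MPP minus HSC, was 1.83 for Runx1t1 (SE 0.33, interval 1.06 to 2.59). It had the smallest p of all genes, 6.72e-05, but not a p that passed adjustment over all of them (adjusted p = 0.704). Of all genes 0% were called for this difference in edgeR, and 419 had an unadjusted p under 0.05. With DESeq2 the adjusted p of Runx1t1 was 0.00229, and 7 genes were called, while limma-voom called 0.

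In control cells Runx1t1 fell from HSC to MPP by 2.54 on the log2 scale (SE 0.25, adjusted p = 9.29e-05 by the edgeR test), and it was the only member called where 1.17% of genes were. In Jarid2-KO cells the MPP to HSC value was -0.71 (SE 0.23, adjusted p = 0.252 by the same test), with 0.525% of genes called and none of the members. There Runx1t1, Runx2 and Runx3 had an unadjusted p under 0.05, as had 10.8% of all genes, and neither DESeq2 nor limma-voom called any. These contrasts share libraries with one another.

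The sum of 4 genes listed as MPP markers ran against Runx1t1. They were Flt3, Cd48, Cd34 and Dntt, and none was at 0. Cells positive for CD48 were gated out of both HSC and MPP here. The summed level was 307 to 415 CPM in control HSC, 302 to 469 CPM in Jarid2-KO HSC, 1404 to 1642 CPM in control MPP and 611 to 925 CPM in Jarid2-KO MPP. Over the 12 Vav libraries its correlation with Runx1t1 was -0.921, a value set by the same 4 groups. Flt3, the cytokine receptor that marks lymphoid-primed MPP, was at 405 to 580 CPM in control MPP and 133 to 276 CPM in Jarid2-KO MPP. The 7 HSC markers summed to between 2011 and 2551 CPM in every Vav library. The 10 granulocyte-monocyte markers summed to 4566 to 15762 CPM in Jarid2-KO MPP, highest in replicate 1, against 3090 to 4310 CPM in control MPP. A list of 4 genes for the Lin- cKit+ Sca1+ fraction (Kit, Ly6a, Ptprc, Cd34) summed lower in Jarid2-KO MPP, at 1718 to 2261 CPM against 2789 to 3596 CPM. It shares Cd34, which was not used in the gates, with the MPP sum. The 6 T cell markers were also lower, at 34.8 to 40.4 CPM against 52.9 to 66.3 CPM. The 5 B cell markers summed to 11.7 to 29.1 CPM in Jarid2-KO MPP and 7.25 to 10.6 CPM in control MPP. Without Jarid2-KO MPP replicate 1 the Runx1t1 value was 1.92 (adjusted p = 0.000602 in edgeR). The part of the other marker shifts in the Runx1t1 result was not tested, and in bulk samples fewer cells of a type and less RNA per cell cannot be told apart.

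**Figure D1:**
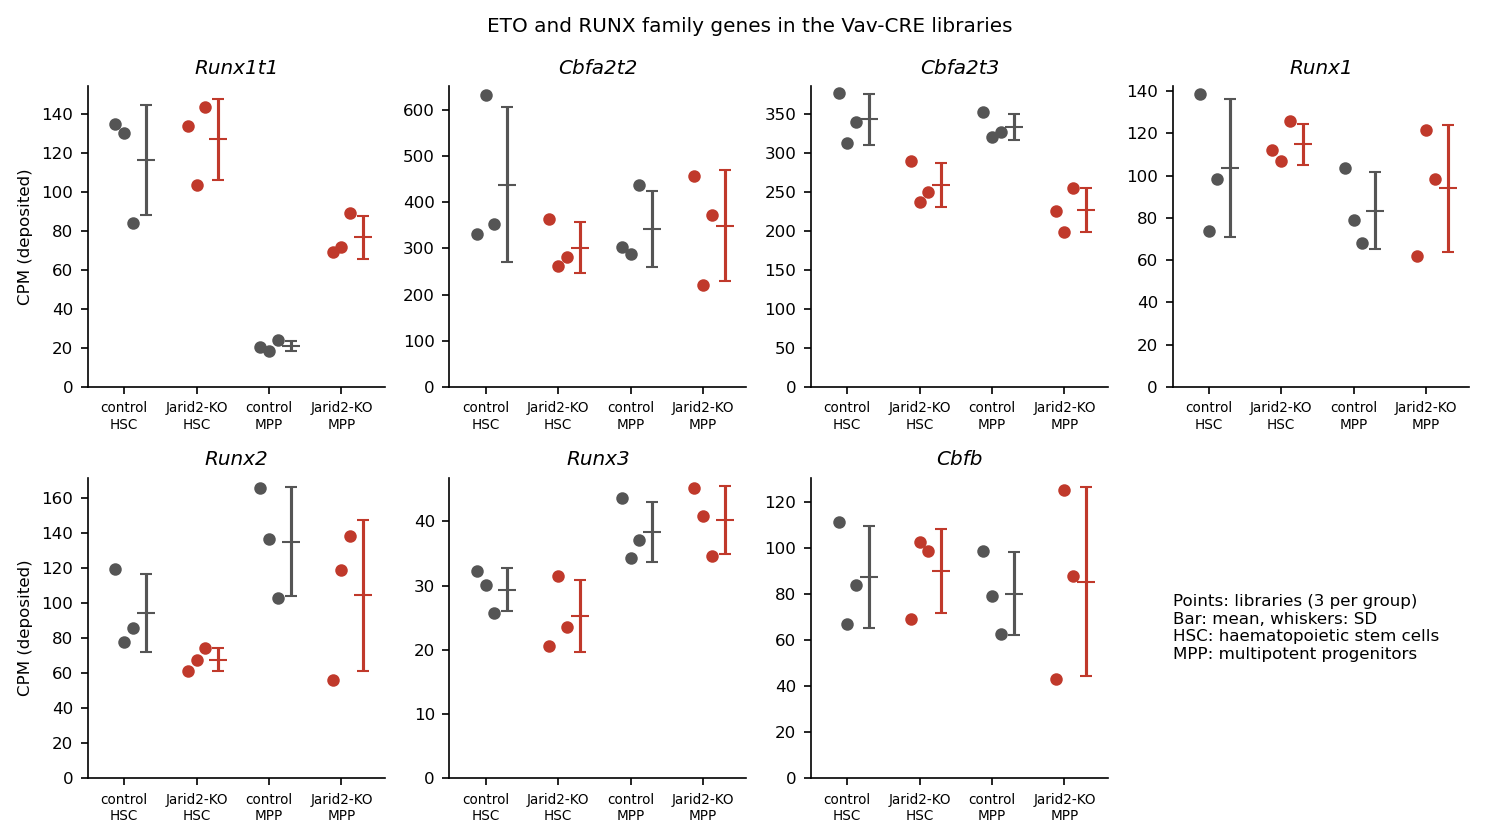
Level of each of the 7 genes in CPM (y axis, from 0) in the 12 Vav libraries, by group along the x axis; each point is 1 library, the bar beside it the group mean and the whiskers the SD. Runx1t1 in control MPP (18.4 to 23.9 CPM) sits apart from the other 3 groups (69.1 to 144 CPM), while the groups of Cbfa2t2, Runx1 and Cbfb overlap.

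The ETO relatives were not called in the edgeR fit of this cohort. Cbfa2t3 (ETO2, ENSMUSG00000006362, chr8:122628739-122699109, minus strand) is a subunit of the TAL1-LMO2 complex of blood progenitors. It was at 377, 313 and 340 CPM in control HSC and at 290, 237 and 250 CPM in Jarid2-KO HSC. In MPP it was at 352, 321 and 327 CPM in controls and at 225, 199 and 256 CPM in Jarid2-KO. Within each cell type every Jarid2-KO library was below every control library. The share of all genes that separate in this way was not counted. Of all genes, 17.0% in HSC and 19.3% in MPP had an unadjusted edgeR p under 0.05. The Cbfa2t3 log2 values were -0.47 in HSC (SE 0.17, adjusted p = 0.201) and -0.55 in MPP (SE 0.17, interval -0.95 to -0.15, adjusted p = 0.119), so edgeR called neither. In MPP the call depended on the tool: the adjusted p was 0.0373 with DESeq2 and 0.0462 with limma-voom, and 0.0429 in edgeR without Jarid2-KO MPP replicate 3. Those fits also called more genes in all, at 7.01%, 2.82% and 9.03% of the genes tested. From HSC to MPP in controls the Cbfa2t3 log2 value was -0.10 (SE 0.17), and the groups overlapped.

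Cbfa2t2 (MTGR1, ENSMUSG00000038533, chr2:154436481-154539356, plus strand) is a broadly expressed ETO protein. It was at 330, 632 and 353 CPM in control HSC and at 364, 261 and 281 CPM in Jarid2-KO HSC. In MPP it was at 303, 288 and 438 CPM in controls and at 456, 220 and 372 CPM in Jarid2-KO. The groups overlapped within each cell type, and control HSC replicate 2 stood above all other Vav libraries. The log2 values were -0.62 in HSC (SE 0.33, adjusted p = 0.346) and 0.03 in MPP (SE 0.33, adjusted p = 0.971 in edgeR).

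The 3 RUNX factors and Cbfb gave no call between genotypes in the Vav cohort. Runx1 (ENSMUSG00000022952, chr16:92601466-92826149, minus strand) was at 139, 73.8 and 98.3 CPM in control HSC and at 112, 107 and 126 CPM in Jarid2-KO HSC. In MPP it was at 103, 78.8 and 67.9 CPM in controls and at 62.0, 122 and 98.2 CPM in Jarid2-KO. Its groups overlapped, with intervals of -0.49 to 0.66 in HSC and -0.41 to 0.75 in MPP around log2 values of 0.09 and 0.17. Runx2 (ENSMUSG00000039153, chr17:44495987-44814797, minus strand), best known as the master factor of bone, was at 120, 77.7 and 85.9 CPM in control HSC and at 61.4, 67.6 and 74.2 CPM in Jarid2-KO HSC. These HSC groups did not overlap, but the value of -0.55 did not pass the edgeR test (SE 0.28, adjusted p = 0.330). Such a separation was not counted over all genes. In MPP Runx2 was at 166, 136 and 103 CPM in controls and at 56.2, 119 and 138 CPM in Jarid2-KO, which overlapped.

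Runx3 (ENSMUSG00000070691, chr4:135120652-135177990, plus strand) acts in cytotoxic T cells. It was at 32.3, 30.1 and 25.7 CPM in control HSC and at 43.6, 34.4 and 37.1 CPM in control MPP. In Jarid2-KO it was at 20.7, 31.5 and 23.6 CPM in HSC and at 45.2, 40.8 and 34.7 CPM in MPP. In each genotype all MPP libraries were above all HSC libraries, with log2 values of 0.32 in controls (SE 0.23, adjusted p = 0.894) and 0.68 in Jarid2-KO (SE 0.23, adjusted p = 0.262). Such an order was not counted over all genes. Cbfb (ENSMUSG00000031885, chr8:105170674-105217989, plus strand) was at 111, 67.2 and 84.0 CPM in control HSC and at 69.0, 103 and 98.6 CPM in Jarid2-KO HSC. In MPP it was at 98.5, 79.3 and 62.5 CPM in controls and at 43.3, 125 and 87.8 CPM in Jarid2-KO. Its values for Jarid2-KO against control were -0.02 in HSC and 0.09 in MPP, inside the spread of the libraries. Jarid2-KO MPP replicate 1, the library with the most granulocyte-monocyte transcripts, was the lowest Vav library for Runx1, Runx2 and Cbfb.

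Over the 7 members the median log2 value for Jarid2-KO against control was -0.29 in HSC, where all tested genes had a median of -0.03, and 0.07 in MPP, where they had 0.02. Genes antisense to Cbfa2t3, Runx1 and Runx2 are annotated, and whether counting used strand is not given in the sources used here. Runx2os1, antisense to Runx2, averaged 1.99 CPM in the Vav cohort.

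**Figure D2:**
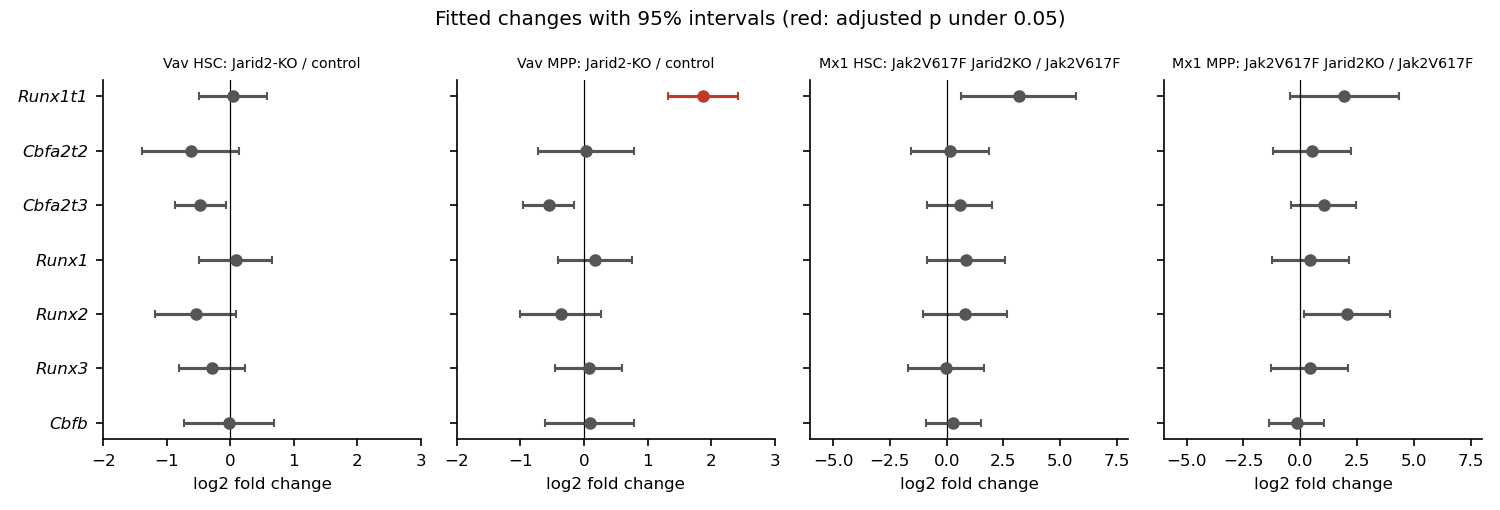
Log2 fold change (x axis) of the 7 genes (y axis) for Jarid2-KO against control in Vav HSC and MPP and for the double mutant against Jak2V617F in Mx1 HSC and MPP; points are edgeR estimates, lines 95% intervals, red marks an adjusted p under 0.05, and the x axes of the Mx1 panels span more than those of the Vav panels. The only red point is Runx1t1 in Vav MPP at 1.87, and the Mx1 intervals are wider, from 0.64 to 5.71 for Runx1t1 in HSC.

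Per base of transcript and by group mean, Cbfa2t3 was the most abundant member in all 4 Vav groups and Cbfa2t2 the next. The libraries of both genes overlapped in control HSC and Jarid2-KO MPP. In Jarid2-KO MPP those of Cbfa2t2 and Cbfb overlapped too. Levels between genes are given in RPKM, which divides CPM by exon length in kilobases. In control HSC the mean levels ran Cbfa2t3 71.9, Cbfa2t2 50.7, Cbfb 25.1, Runx1t1 14.6, Runx2 10.7, Runx1 8.75 and Runx3 5.88 RPKM. Of these neighbours, Cbfa2t2 and Cbfb were apart, as were Cbfb and Runx1t1, and the other neighbours overlapped. In control MPP Runx1t1 came last at 2.63 RPKM, below every library of Runx1, its neighbour in the order at 7.05 RPKM. In Jarid2-KO MPP it stood at 9.63 RPKM and overlapped both Runx2 at 11.8 RPKM and Runx3 at 8.04 RPKM.

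Runx1t1 made up different shares of the ETO family's summed RPKM. The share was 8.62% to 12.6% in control HSC, 2.24% to 2.45% in control MPP, 14.0% to 17.6% in Jarid2-KO HSC and 7.99% to 11.8% in Jarid2-KO MPP. The ranges of control HSC and Jarid2-KO MPP overlapped, and that of control MPP stood below the others. The RUNX family was more even: Runx2 held a mean of 42.1% of the summed RUNX level in control HSC and 50.7% in control MPP, and Runx1 held 34.1% and 23.4%. Cbfb, the partner shared by all 3, averaged 0.989 times the summed RUNX level in control HSC and 0.764 times in control MPP.

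**Figure D3:**
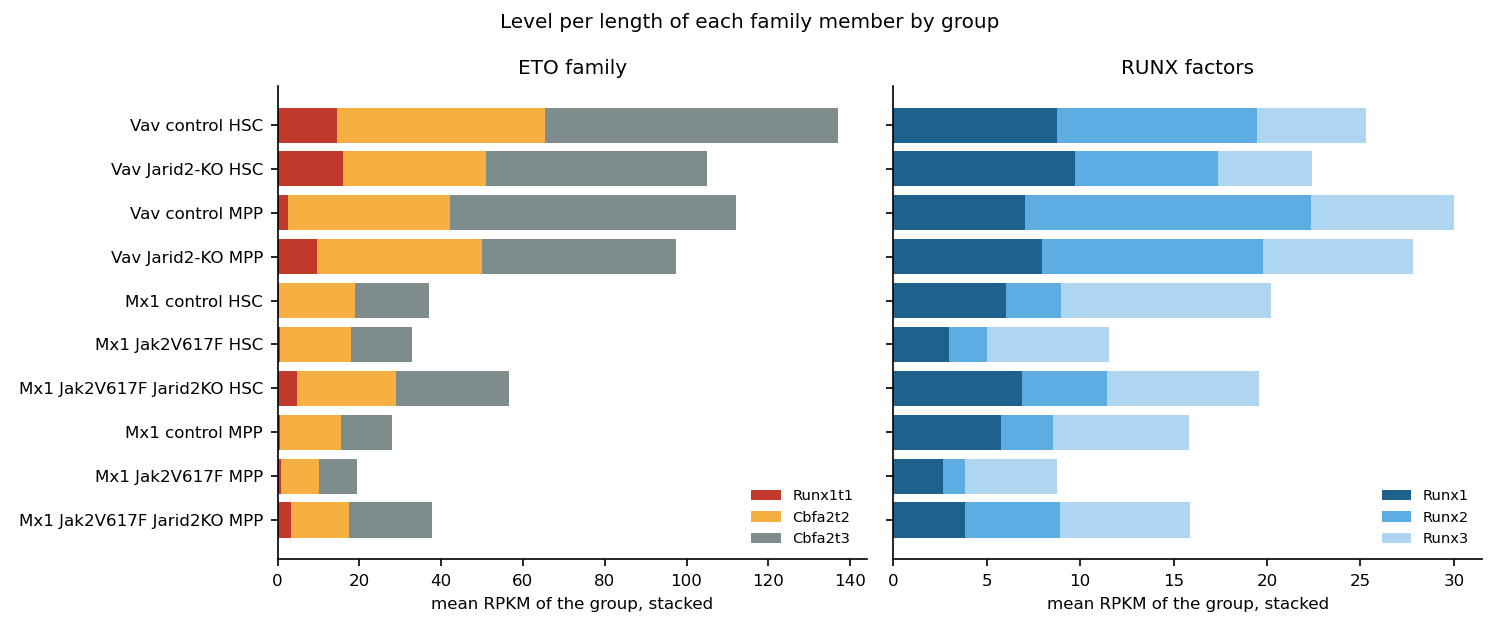
Mean RPKM (x axis) of the ETO genes and of the RUNX genes stacked in 1 bar per group (y axis), with 3 libraries a group in the Vav cohort and 2 in the Mx1 cohort. Cbfa2t3 and Cbfa2t2 fill most of the ETO bars, Runx1t1 is a mean of 2.34% of the ETO level in Vav control MPP and 10.1% in Jarid2-KO MPP, and Runx3 is the largest RUNX part in the Mx1 groups.

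Runx1t1 in the Mx1 cohort was low in every control and Jak2V617F library and higher in every double mutant library. It stood at 2.35 and 4.31 CPM in control HSC, 1.50 and 6.79 CPM in control MPP, 0.680 and 6.58 CPM in Jak2V617F HSC and 5.11 and 7.80 CPM in Jak2V617F MPP. In the double mutant it stood at 36.0 and 37.7 CPM in HSC and at 32.3 and 19.7 CPM in MPP. The low libraries rest on 11 to 84 counts each, the double mutant libraries on 155 to 610. The 4 double mutant libraries did not overlap the other 8, and the share of all genes that separate in this way was not counted.

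None of the 7 members was called by edgeR in any of the 9 Mx1 comparisons, in which 0% of 19616 genes were called. For Runx1t1 the double mutant against Jak2V617F gave a log2 value of 3.17 in HSC (SE 1.04, interval 0.64 to 5.71, adjusted p = 0.549) and 1.95 in MPP (SE 0.99, interval -0.47 to 4.36, adjusted p = 1). Against controls the values were 3.16 in HSC (SE 1.04, adjusted p = 0.424) and 2.53 in MPP (SE 1.01, adjusted p = 0.973). The contrasts with Jak2V617F and with controls share the double mutant libraries. At an unadjusted p under 0.05 there were 919 genes in HSC and 588 in MPP against Jak2V617F, and 1249 and 924 against controls. Members at that unadjusted level were Runx1t1 in 3 of the 4 contrasts and Runx2 in the other, MPP against Jak2V617F. In the same order DESeq2 called 345, 80, 437 and 234 genes and limma-voom 2, 9, 83 and 0. In the other 5 Mx1 comparisons no member had an unadjusted p under 0.05, and neither DESeq2 nor limma-voom called one.

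The Mx1 calls depended on the tool and on the 2 sets of libraries with more and less heart RNA. DESeq2 called Runx1t1 in HSC against Jak2V617F (3.24, adjusted p = 0.0279) and against controls (3.16, adjusted p = 0.0299), and limma-voom called it in none. With a term for the heart set, edgeR gave 3.72 in HSC against Jak2V617F (SE 0.72, adjusted p = 0.00168), 2.56 against controls (adjusted p = 0.0327), 2.64 in MPP against Jak2V617F (adjusted p = 0.0910) and 2.79 against controls (adjusted p = 0.0222). In the same order, the fits with that term called 2.75%, 2.34%, 0.591% and 1.58% of all genes. Within the low-heart set the 2 double mutant libraries were at 19.7 to 37.7 CPM and the 4 others at 0.680 to 4.31 CPM. Within the high-heart set the ranges were 32.3 to 36.0 CPM and 5.11 to 7.80 CPM. Single libraries moved the size: in HSC against Jak2V617F the value was 5.50 without Jak2V617F HSC replicate 2 and 2.41 without replicate 1, and in MPP against controls it was 3.86 without control MPP replicate 2 and 1.82 without replicate 1.

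Stem cell markers moved with Runx1t1 in this cohort. The 7 HSC markers summed to 102 to 230 CPM in the 8 control and Jak2V617F libraries, 792 to 2225 CPM in double mutant HSC and 652 to 1066 CPM in double mutant MPP. The 10 granulocyte-monocyte markers summed to 9946 to 40469 CPM in control and Jak2V617F libraries and to 1741 to 5570 CPM in the double mutant. Over the 12 libraries the correlation of Runx1t1 was 0.903 with the first sum and -0.922 with the second, with the double mutant libraries at one end of each. Procr, a surface marker of HSC, was at 0.0653 to 8.89 CPM in control and Jak2V617F libraries and at 24.8 to 74.4 CPM in the double mutant. The part of these markers in the Runx1t1 difference was not tested.

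**Figure D4:**
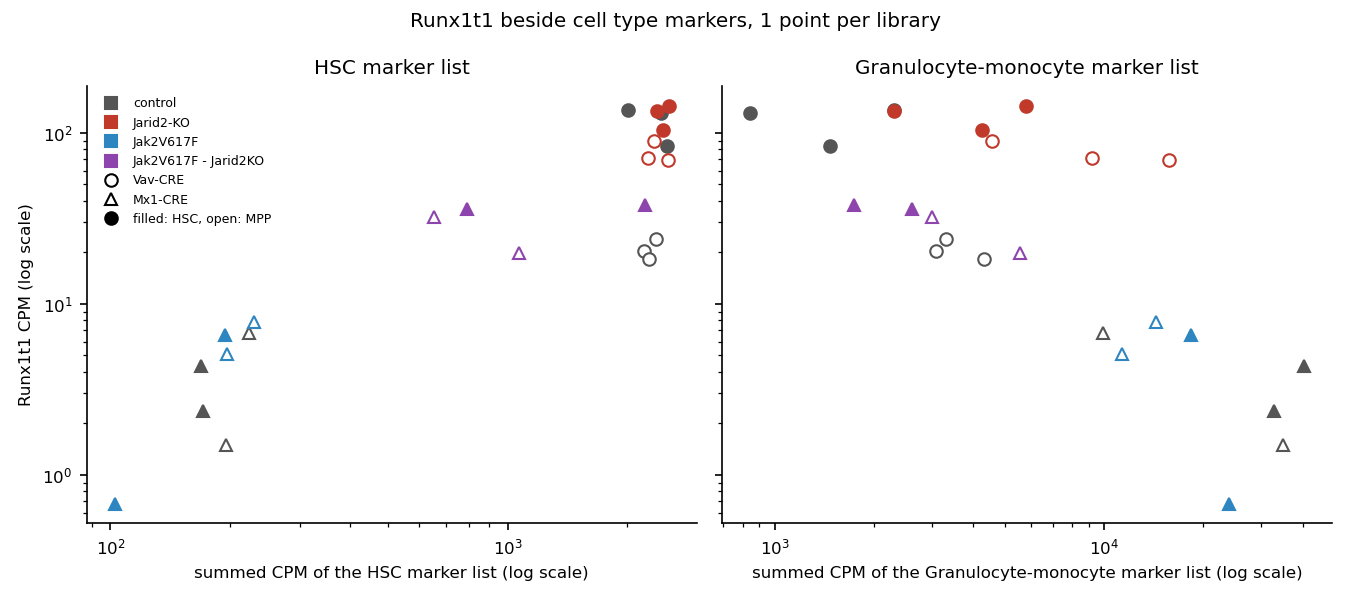
Runx1t1 in CPM (y axis, log scale) against the summed level of the HSC markers and of the granulocyte-monocyte markers (x axes, CPM, log scale) in the 24 libraries; each point is 1 library, coloured by genotype, round for Vav and triangular for Mx1, filled for HSC and open for MPP. In the Mx1 cohort the 4 double mutant libraries lie at 19.7 to 37.7 CPM of Runx1t1 with the higher HSC sums, and the 8 others at 0.680 to 7.80 CPM with HSC sums of 102 to 230 CPM.

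Runx2 was also higher in every double mutant MPP library than in either Jak2V617F MPP library, without a call. In MPP it was at 9.30 and 11.2 CPM in Jak2V617F and at 30.8 and 59.1 CPM in the double mutant, a log2 value of 2.04 (SE 0.77, interval 0.15 to 3.94, adjusted p = 1 in edgeR). In controls it was at 31.5 and 21.0 CPM in HSC and at 40.5 and 9.17 CPM in MPP, and in HSC at 22.1 and 14.6 CPM in Jak2V617F and 21.7 and 59.4 CPM in the double mutant. Within each heart set the double mutant libraries were above the others, at 59.1 to 59.4 CPM against 21.0 to 40.5 CPM in the low set and 21.7 to 30.8 CPM against 9.17 to 14.6 CPM in the high set. How many of all genes did so was not counted. Cbfa2t3 was at 44.9 and 44.2 CPM in Jak2V617F MPP and at 75.9 and 118 CPM in double mutant MPP, a value of 1.04 (SE 0.59, adjusted p = 1 in edgeR).

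Levels of Cbfa2t2, Runx1 and Runx3 were lower in the high-heart set. Cbfa2t2 was at 158 to 270 CPM in the low-heart set and 60.7 to 150 CPM in the high-heart set, Runx1 at 43.9 to 127 CPM and 26.3 to 36.2 CPM, and Runx3 at 39.8 to 63.8 CPM and 18.0 to 25.8 CPM. None of these 3 pairs of ranges overlapped. How many of all genes separate by heart set was not counted, and the part of heart RNA in these levels was not tested. Over the 12 libraries the correlation with the summed heart level was -0.950 for Runx3, -0.898 for Cbfa2t2, -0.868 for Runx1 and -0.0645 for Cbfb. Cbfb, at 35.1 to 86.7 CPM, had the smallest ratio of highest to lowest library of the 7. Jak2V617F HSC were below control HSC in Runx1 (43.9 and 26.3 against 92.1 and 50.1 CPM), Runx3 (39.8 and 25.1 against 63.8 and 48.6 CPM) and Cbfb (43.6 and 50.8 against 86.7 and 68.8 CPM). The log2 values were -1.11, -0.87 and -0.82, with an adjusted p of 1 for each in edgeR. No member had an unadjusted p under 0.05 there, as had 1.52% of all genes. How many of all genes separate in this way, with 2 libraries a group, was not counted. One of those Jak2V617F libraries and neither control library was in the high-heart set.

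**Figure D5:**
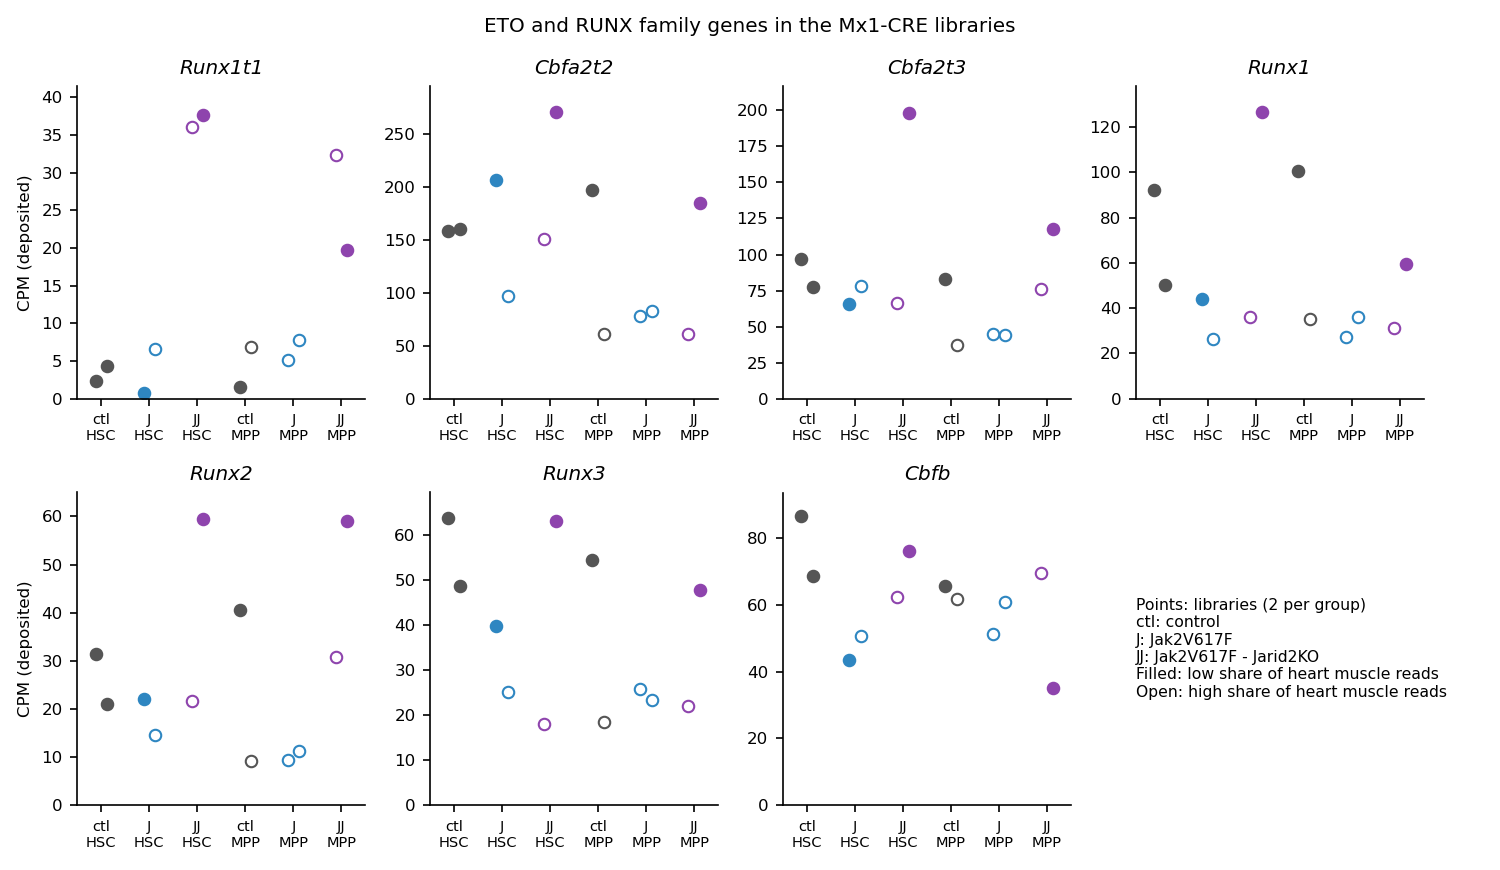
Level of each of the 7 genes in CPM (y axis, from 0) in the 12 Mx1 libraries, by group along the x axis (ctl control, J Jak2V617F, JJ double mutant); each point is 1 library, filled in the low-heart set and open in the high-heart set. Runx1t1 is at 0.680 to 7.80 CPM in control and Jak2V617F groups and at 19.7 to 37.7 CPM in the double mutant, and the replicates of Runx1 and Runx3 in double mutant HSC lie far apart.

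In control HSC of this cohort the order by length-scaled level was Cbfb 22.3, Cbfa2t2 18.4, Cbfa2t3 18.2, Runx3 11.2, Runx1 6.01, Runx2 2.97 and Runx1t1 0.418 RPKM, with Cbfa2t2 and Cbfa2t3 overlapping and the other neighbours apart. Runx1t1 was last in all control and Jak2V617F groups, at means of 0.418 to 0.811 RPKM, sixth in double mutant HSC at 4.63 RPKM and last in double mutant MPP at 3.27 RPKM. In the double mutant it overlapped its neighbours in the order, Runx1 and Runx2 in HSC and Runx1 in MPP. Runx3 held 39.5% to 60.5% of the summed RUNX level in the Mx1 libraries and Runx2 12.4% to 33.2%. In the Vav libraries, whose tables were made separately, the shares were 19.8% to 43.8% and 30.8% to 53.3%.

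The wider pathway was read in 4 lists of 62 genes, of which 61 matched a symbol. They hold ETO corepressor partners (Ncor1, Sin3a, Hdac3 and others), the TAL1-LMO2-E protein complex, RUNX cofactors and modifiers, and described RUNX targets in blood. For Jarid2-KO against control, edgeR called 0 of 14, 0 of 12, 0 of 16 and 0 of 17 tested members in HSC, with list medians of -0.05, -0.12, 0.03 and 0.09 beside -0.03 over all genes. At an unadjusted p under 0.05 there were 1, 1, 5 and 6, where 17.0% of all genes were. In MPP it also called 0 of each, with medians of 0.03, 0.29, 0.28 and 0.07 beside 0.02 over all genes and 3, 4, 4 and 5 members at an unadjusted p under 0.05, where 19.3% of all genes were. From control HSC to control MPP, Cebpa, the granulocyte factor that binds beside RUNX1, rose by 2.57 on the log2 scale (SE 0.56, adjusted p = 0.0404 in edgeR). It was 1 of 16 RUNX cofactors called, where 1.17% of all genes were, and 2 of the 16 had an unadjusted p under 0.05. Among 17 RUNX targets, Cd34 rose by 1.63 (SE 0.24, adjusted p = 0.00312) and the integrin gene Itgb3 fell by 1.67 (SE 0.35, adjusted p = 0.0314 in edgeR), and 10 of the 17 had an unadjusted p under 0.05. The ETO partners and the TAL1 complex had 0 called there, with 3 and 1 members at an unadjusted p under 0.05, where 8.44% of all genes were. No list member was called by edgeR in the Mx1 cohort, and for the double mutant against Jak2V617F in HSC the list medians were -0.31, 0.00, 0.26 and 0.58, with 1, 1, 1 and 6 members at an unadjusted p under 0.05, where 4.68% of all genes were.

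Genes whose log2 levels ran most like each member over the 12 libraries of a cohort were listed as a description, since all points share the same groups and libraries. For Runx1t1 in the Vav cohort they were Ocln (r = 0.961), a tight junction protein, Cpm (0.947), a carboxypeptidase, and Rhoj (0.939), a small GTPase, among 10338 genes. In the Mx1 cohort they were Mecom (0.957), a transcription factor of HSC that is also in the HSC marker list, Iigp1 (0.955), an interferon-induced GTPase, and Sgce (0.950), among 11540 genes. For Runx1 in the Vav cohort they were Ankrd17 (0.972), Foxo1 (0.937) and Kidins220 (0.937), and for Cbfb they were Naa30 (0.976), Hipk3 (0.973) and Tnks2 (0.970). For Runx2 they were Snx30 (0.957), Pcgf5 (0.952) and Hlf (0.939), of which Hlf is an HSC transcription factor. For Cbfa2t3 the closest was Enpp5 (0.937), for Cbfa2t2 it was Ccdc6 (0.946), and for Runx3 it was Ifngr2 (0.922), a subunit of the interferon gamma receptor. None of these genes was named for more than 1 member within a cohort. The names depended on the measure. By Spearman correlation, 2 of the top 3 were the same for Runx1t1 in the Vav cohort and 0 in the Mx1 cohort. For the other members in the Vav cohort 0 to 2 were the same.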

How the data were processed

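The 24 RNA-seq libraries of sorted HSC and MPP were read from 1 table each, and 8 H3K27me3 ChIP samples were not analysed here. RNA (3 to 5 ng, per the labels' protocols) was amplified with a SMARTer Ultra Low kit. Per the submitters' processing notes the build was mm10 and the tools, named without their roles, were Partek 6.6, HTSeq 0.8.0, featureCounts 1.4.5, Subread and STAR 2.0.4. Per the file headers, the deposited tables hold the raw count of each gene, the CPM (a count relative to its library's sum) and the RPKM, which is CPM per kilobase of exon length. Recomputing the deposited CPM and RPKM from the counts gave the same values.

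Each cohort was fitted alone in edgeR 4.0.16 (R 4.3.3) with all its groups. Genes were kept by filterByExpr (minimum count 10, total 15), scaled by TMM and tested by the robust quasi-likelihood F test. Benjamini-Hochberg adjustment ran over all genes tested, and a call is an adjusted p under 0.05. The Vav fit had 15818 genes, a biological coefficient of variation of 0.337 and 8 residual degrees of freedom, and the Mx1 fit 19616 genes, 0.786 and 6. All 7 members passed the filter in both. Levels are untransformed CPM or RPKM, with correlations on log2(CPM + 1), each gene averaging at least 4 CPM. Likeness named the 3 genes of highest Pearson correlation per member and cohort, leaving out predicted and small RNA genes. Up to 4 called genes of each pathway list are named. Overlap of groups was read for the members only, so no share over all genes stands beside it. The members, lists and rules were chosen with earlier results of these data known. The HSC marker list holds Mecom and Hlf.

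Alternatives were DESeq2 1.42.0 (size factors and Wald test), limma-voom (limma 3.58.1) with quality weights, no filter, a stricter filter of 20 counts, only the groups compared, the replicate number as a block, a term for the 2 heart sets, and leaving out each library. A crossed replicate block was added after seeing the data. The fits were tested on simulated counts with known changes, in a Vav and an Mx1 comparison. The Vav fit recovered most of the larger changes. The Mx1 fit recovered no changed gene, so a lack of edgeR calls there does not show that a gene is unchanged. Promoter windows came from RefSeq (GRCm38.p6), and no sequence of Runx1t1 was used. Sources differ on the pool size per library (5 or 3 mice of each sex).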

Additional observations from a re-analysis of the deposited data

Results flagged for a closer look

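The Jarid2-KO effect on Runx1t1 in the Vav cohort differed between MPP and HSC by 1.83 on the log2 scale, with 3 of 3 Jarid2-KO MPP libraries above all control MPP libraries and the HSC groups overlapping. It was listed because this difference passed adjustment with DESeq2 (adjusted p = 0.00229) and in edgeR without a filter (adjusted p = 0.000662). Those fits called 7 and 74 genes in all. The difference did not pass in the filtered edgeR test (adjusted p = 0.704) or in limma-voom (adjusted p = 0.475).

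Cbfb in the Mx1 cohort was listed because its HSC and MPP libraries did not overlap and were ordered in opposite ways in 2 genotypes. From HSC to MPP the log2 value was -0.36 in controls (SE 0.49, interval -1.56 to 0.84), where both MPP libraries were below both HSC libraries. In Jak2V617F, where both were above, it was 0.15 (SE 0.49, interval -1.04 to 1.35). Neither value passed the edgeR test, and both intervals include 0. The difference between the genotypes was not tested. How many of all genes show such an order, with 2 libraries a group, was not counted.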

How the results depend on the processing

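The count of the 7 members called was recomputed for each comparison under 181 alternatives in all, and it was the same in 170. In Vav MPP, Jarid2-KO against control, it was 2 with the DESeq2 Wald test and 2 with limma-voom in place of 1, through Cbfa2t3, and ran from 1 to 2 when each library was left out. Over all genes the DESeq2 Wald test called 1109 and limma-voom 446 there, against 150. The fit without Jarid2-KO MPP replicate 3, which gave 2 members, called 1512 genes. For the MPP minus HSC difference the count of members called was 1 with no filter and 1 with DESeq2, in place of 0. These 2 fits called 74 and 7 genes in all. In Mx1 HSC, the double mutant against Jak2V617F gave 1 with DESeq2 and 1 with the heart term, and against controls 1 with DESeq2, 1 with the heart term and 1 with only the groups compared. In the same order these fits called 1.76%, 2.75%, 2.23%, 2.34% and 2.38% of all genes tested. In Mx1 MPP the double mutant against controls gave 1 with the heart term, which called 1.58% of all genes. Leaving out each library kept the count at 1 for Vav control MPP against HSC. The count stayed at 0 in all the rest but Jarid2-KO against control in Vav MPP, given above. In the Mx1 comparisons and for the MPP minus HSC difference, the full edgeR fit called no gene at all. For these counts of 0, leaving libraries out says nothing about stability. Over all genes the calls fell in Vav HSC from 90 to between 14 (without Jarid2-KO HSC replicate 2) and 47, and in control MPP against HSC from 185 to between 61 (without control MPP replicate 2) and 102. In Jarid2-KO MPP against HSC, 83 became 36 without Jarid2-KO HSC replicate 2 and 180 without Jarid2-KO MPP replicate 3. The cause of the differences between tools was not tested. The Runx1t1 call in Vav MPP held in 13 of 13 alternatives, with log2 values of 1.73 to 2.02, and so did that in control MPP against HSC, at -2.75 to -2.40.

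Whether replicate numbers pair the libraries was not settled. Deviations from the group mean of same-numbered libraries correlated at -0.349 to 0.365 over 18 Vav pairs and at -0.696 to 0.698 over 30 Mx1 pairs. Of the libraries, 4 of 12 Vav and 10 of 12 Mx1 correlated best with their own number, a hint from the data and not from the design. In groups of 2 the deviations mirror each other, so the 2 libraries of an Mx1 group do not count separately. With the replicate block Runx1t1 in Vav MPP was 1.87 (adjusted p = 0.00859 in edgeR), and the number of members called was the same as without the block in every comparison. A crossed block in 3 Mx1 comparisons, chosen after seeing the data, called 0 members. The 2 libraries per Mx1 group, and 11 to 84 counts of Runx1t1 in each control and Jak2V617F library, limit what that cohort can resolve. Of 98 member values, 51 changed sign under some alternative, none of them called.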

Other observations

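Within the Vav cohort Runx1 and its partner Cbfb ran together over the 12 libraries (r = 0.855 on the log2 scale), and Cbfa2t2 ran against Cbfb (r = -0.754). In the Mx1 cohort the closest pairs were Cbfa2t3 with Runx2 (r = 0.905) and Runx1 with Runx3 (r = 0.870). The libraries share groups and, in the Mx1 cohort, the heart sets, so these values are descriptions.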
